A study of Mus musculus with 29 samples.

Results

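The genes described here encode the voltage-gated sodium, calcium and potassium channels of excitable cells and the auxiliary subunits that assemble with them. They were chosen by a rule on gene symbols, with earlier results of these data known. The rule took the Scn genes (sodium channel alpha and beta subunits). It took the Cacna1, Cacna2d, Cacnb and Cacng genes (calcium channel pore, alpha2delta, beta and gamma subunits). It also took the Kcna, Kcnb, Kcnc, Kcnd, Kcnq and Kcnab genes (Kv1, Kv2, Kv3, Kv4 and Kv7 pores and Kv beta subunits). The rule found 65 members among 25746 gene identifiers, and 61 of them passed the filter on low counts. The other 4, Kcna7, Kcna10, Scn4a and Scn11a, had at most 23 counts in any library.

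RNA was sequenced from brain tissue of 29 mice in 8 groups, either without stroke or 21 days after photothrombosis had been used to make a large lesion in the right sensorimotor cortex. The C57BL/6J wildtype mice (WT) formed a non-stroked group (n = 4), a stroked group (n = 4), a stroked group given tacrolimus from the day of stroke (WT-Tacr acute, n = 3) and a stroked group given tacrolimus from day 7 (WT-Tacr delayed, n = 5). Tacrolimus, a calcineurin inhibitor that suppresses T cells, was delivered by an implanted pump. Rag2-/- mice, which lack mature T and B cells, gave 3 non-stroked and 3 stroked libraries. NSG mice, which lack T, B and natural killer cells, gave 4 non-stroked and 3 stroked libraries. NSG mice carry their mutations on another strain background than WT mice, so strain background and immune deficiency cannot be told apart. Non-stroked libraries carry the label Ctrl, and whether their tissue was the contralesional side of stroked animals or came from animals without stroke is described in both ways by the study.

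Voltage-gated sodium channels open on depolarisation and carry the rising phase of the action potential. Kv channels repolarise the membrane and set firing rate and pattern, and calcium channels couple electrical activity to transmitter release, dendritic signalling and transcription. Auxiliary subunits traffic the pores to the membrane and tune their gating, and several gamma subunits (the TARPs) instead accompany AMPA-type glutamate receptors. In the cortex most of these genes are expressed in neurons, and sodium and Kv channels are concentrated at the axon initial segment and the nodes of Ranvier.

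Total counts ranged from 17789044 to 43403413 per library, and the members took 0.702 to 1.0021% of them. Library titles begin with Imm2 (20 libraries) or TF (9 libraries), a prefix the labels do not explain. All non-stroked, Rag2-/- and NSG libraries were Imm2, all delayed libraries were TF, and the WT stroked and acute groups held both. A change against non-stroked mice in the delayed group can therefore be separated from the prefix only through the WT stroked and acute groups, in a fit with the prefix as a covariate. The Rag2 gene had 2 counts in 1 WT stroked library and 0 in all others, which leaves nothing to check the Rag2-/- label with. Levels are given as CPM, counts scaled to the size of each library. The summed CPM of 6 microglia and macrophage markers was 155 to 183 in non-stroked WT mice and 571 to 1020 in stroked WT mice. In the acute group this sum was 244, 203 and 931 CPM, so replicates 1 and 2 lay close to the non-stroked range and replicate 3 within the stroked range. For acute replicates 1 and 2 the sample title and the name of the deposited table carry different animal numbers, and both were kept in the group that the labels give. The sum of 8 neuronal markers was 7650 to 8520 CPM in non-stroked WT, 5260 to 6900 in stroked WT, 7920, 7630 and 5760 in acute and 4530 to 5520 in delayed mice. It went from 7480 to 7820 CPM to 5620 to 6940 CPM in Rag2-/- and from 6680 to 8050 CPM to 5960 to 6370 CPM in NSG mice. In bulk tissue, fewer neurons and less channel RNA in each neuron cannot be told apart.

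In non-stroked WT tissue several auxiliary subunits were more abundant per length than the pores. On the scale of CPM per kilobase of exon, the TARP gene Cacng7 was at 124 ± 7.45 (SD, n = 4). Kcnab2, a Kv beta subunit, was at 94.9 ± 6.50 and Scn2b, a sodium channel beta subunit, at 77.6 ± 3.81. Cacnb3 (66.9 ± 3.08) led the calcium channel beta subunits and Cacna2d1 (21.7 ± 1.01), a target of gabapentinoid drugs, led the alpha2delta subunits.

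Among pores, Scn8a (41.3 ± 2.76), the sodium channel of the mature initial segment and node, Kcna2 (40.1 ± 3.45) and Scn2a (36.8 ± 2.84) were at similar levels. Scn8a and Kcna2 differed by less than the larger SD, as did Kcna2 and Scn2a. Of the Kv3 pores, Kcnc1 was at 30.8 ± 0.904, Kcnc4 at 26.4 ± 1.67 and Kcnc2 at 16.7 ± 1.05. The highest calcium channel pore was Cacna1a (30.2 ± 1.31), which carries P/Q-type current at terminals, the highest T-type pore was Cacna1i (17.4 ± 1.09), and the highest Kv4 pore was Kcnd2 (23.2 ± 1.42). The L-type pores Cacna1d (6.68 ± 0.648) and Cacna1c (6.59 ± 0.409) did not differ beyond their spread. Sodium channel pores best known outside the brain were near the floor, with Scn7a at 0.441 ± 0.0922 and Scn9a at 0.150.

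**Figure D1:**
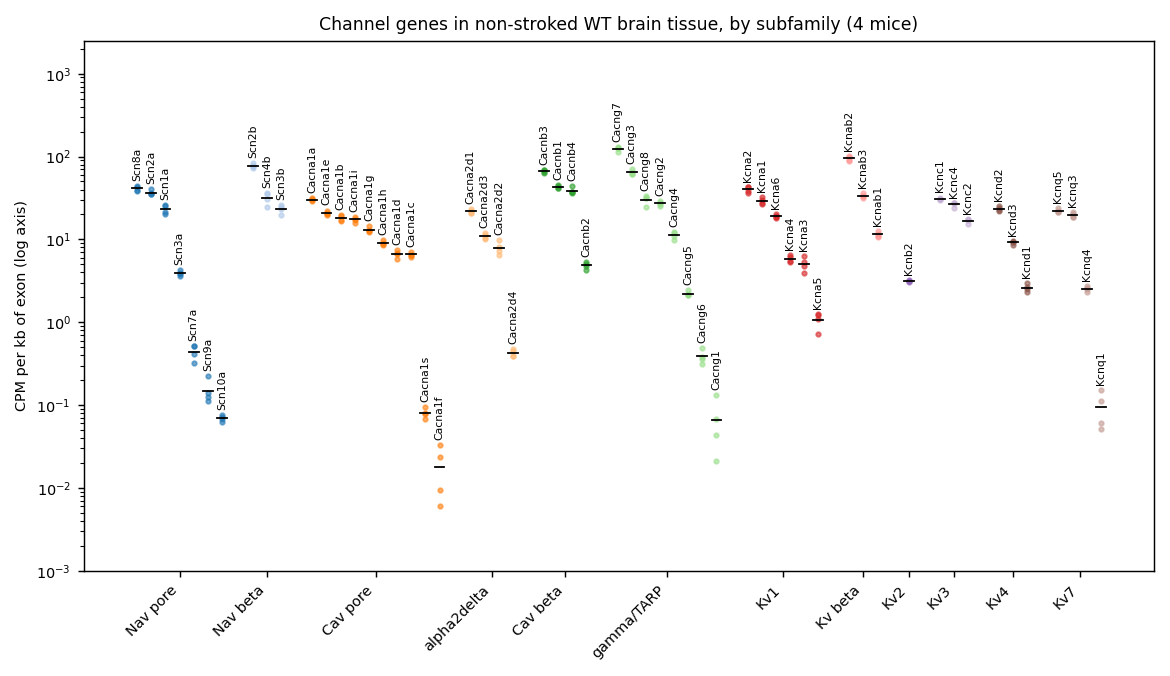
Level of 56 members in the 4 non-stroked WT mice, in CPM per kilobase of exon on a log axis, grouped by subfamily (points, mice; lines, means). Cacng7 stands at 124 and Kcnab2 at 94.9, and Cacna1f lies lowest at 0.0179.

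Stroke in WT mice lowered many of these genes by modest amounts. All adjusted p-values below come from edgeR's quasi-likelihood test with Benjamini-Hochberg adjustment over all 17031 genes tested, and a gene is said to rise or fall where that value was under 0.05. Of the 61 members, 23 fell and 4 rose in stroked WT against non-stroked WT mice, while 11.6% of all genes tested fell and 15.2% rose. No member fell by more than 1 on the log2 scale. The median log2 fold change was -0.30 over the members and 0.00 over all genes. Pore subunits fell in 18 of 38 cases and auxiliary subunits in 5 of 23.

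Of the 4 sodium channel pores of the brain 3 fell, and the one known as the embryonic form did not pass. Scn8a went from 701, 673, 621 and 609 CPM in non-stroked to 466, 434, 372 and 321 CPM in stroked WT mice, a log2 fold change of -0.71 ± 0.136 (SE; edgeR, adjusted p = 0.000557). Scn1a, the main sodium channel of fast-spiking interneurons, went from 280, 287, 237 and 224 to 159, 162, 144 and 134 CPM, with a log2 fold change of -0.78 ± 0.167 (edgeR, adjusted p = 0.0015). The non-stroked and stroked mice did not overlap for either gene. Scn2a, the channel of the proximal initial segment and of unmyelinated axons, went from 445 to 521 CPM to 291 to 362 CPM, at a log2 fold change of -0.57 ± 0.13. Scn3a, which is prominent before birth, was at 44.6 to 52.6 CPM without and 33.5 to 59.4 CPM with stroke, and its log2 fold change was 0.01 ± 0.178 (edgeR, adjusted p = 0.981). Of the beta subunits Scn2b fell (-0.40 ± 0.0952), and Scn3b and Scn4b did not pass.

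Kv3 genes fell, whereas no Kv4 gene did. Kv3 channels open at high voltage and let neurons fire at high rates. Kcnc1 was at 287, 303, 289 and 284 CPM and then at 227, 182, 169 and 168 CPM, a change of -0.64 ± 0.117 with the smallest adjusted p among the members (edgeR, 0.000339). Kcnc2 (-0.47 ± 0.131) and Kcnc4 (-0.50 ± 0.18) fell as well, Kcnc4 with overlapping groups. The Kv2 gene Kcnb2, which encodes a delayed rectifier, fell by 0.47 ± 0.159 on the log2 scale. For Kcnc4 and for Kcnb2 the call was lost in 5 of 8 fits without a single library. Neither of these 2 genes passed with the title prefix as a covariate or with the Imm2 stroked libraries alone. The Kv4 genes Kcnd1, Kcnd2 and Kcnd3, whose products carry the transient current of dendrites, had log2 fold changes of -0.03, -0.17 and -0.03.

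Kv1 genes moved in both directions. Kcna2, the Kv1 channel of the juxtaparanode and initial segment, went from 507, 516, 459 and 429 to 338, 326, 289 and 257 CPM (log2 fold change -0.66 ± 0.141, edgeR, adjusted p = 0.00151). Its partner Kcna1 went from 155, 144, 129 and 130 to 87.5, 90.3, 87.4 and 76.9 CPM (-0.71 ± 0.229, adjusted p = 0.0247 in edgeR). Kcna3, known best as the Kv1 channel of T cells and microglia but also expressed in neurons, went from 10.1, 12, 7.56 and 9.18 CPM to 5.35, 5.22, 4.96 and 5.28 CPM (-0.90 ± 0.264, edgeR, adjusted p = 0.0142). For these 3 genes every stroked WT mouse was below every non-stroked one. Kcna5 rose from 3.53, 3.13, 2.04 and 3.55 to 6.61, 5.36, 9.30 and 10.4 CPM (1.37 ± 0.45, edgeR, adjusted p = 0.0265). Of the 8 fits without a single library, 4 lost the call for Kcna5 and 3 that for Kcna1. Kcna1, Kcna3 and Kcna5 did not pass with the title prefix as a covariate or with the Imm2 stroked libraries alone. Kcna4 and Kcna6 and the 3 Kv beta genes did not pass, and of the Kv7 genes, whose products carry the M-current that limits repetitive firing, Kcnq3 (-0.44 ± 0.139) and Kcnq5 (-0.57 ± 0.187) fell.

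The calcium channel genes that fell were 4 pores, of the presynaptic and T types, and 4 auxiliary subunits. Cacna1a was at 364, 347, 338 and 329 CPM in non-stroked and at 263, 229, 159 and 143 CPM in stroked mice, a log2 fold change of -0.80 ± 0.178 (edgeR, adjusted p = 0.0022). The groups were apart, and the TF libraries held the lower pair. The N-type pore Cacna1b (-0.46 ± 0.137) and the T-type pores Cacna1i (-0.48 ± 0.134) and Cacna1g (-0.38 ± 0.143) fell, the call for Cacna1g being lost in 7 of 8 fits without a single library and with the prefix as a covariate (edgeR, adjusted p = 0.237). The R-type pore Cacna1e was at -0.30 ± 0.137 without passing (edgeR, adjusted p = 0.099). The neuronal L-type pores Cacna1c and Cacna1d were at -0.13 ± 0.134 and -0.12 ± 0.142. Among auxiliary subunits Cacna2d1 (-0.36 ± 0.0942), Cacnb4 (-0.54 ± 0.136) and the TARPs Cacng2 (-0.69 ± 0.135) and Cacng3 (-0.58 ± 0.171) fell. Cacng2, which encodes stargazin, went from 160, 149, 151 and 140 to 104, 103, 87.5 and 75.5 CPM, with no overlap.

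Some abundant members, such as Scn8a and Kcna2, fell, while other abundant members did not, nor did some at lower levels. Cacng7 was at 316, 308, 311 and 276 CPM without and at 301, 300, 141 and 159 CPM with stroke (log2 fold change -0.43 ± 0.195, edgeR, adjusted p = 0.105). Kcnab2 was at 564, 505, 557 and 492 CPM and then at 549, 536, 406 and 394 CPM (-0.17 ± 0.122, edgeR, adjusted p = 0.317). In both genes the Imm2 stroked libraries lay within the non-stroked range and the TF libraries below it. Cacnb3 was at 254 to 279 CPM and 207 to 293 CPM, Kcnd2 at 112 to 129 CPM and 95.4 to 117 CPM, Cacna1d at 74.1 to 93.8 CPM and 70.5 to 87.8 CPM, and Scn7a at 2.36 to 3.79 CPM and 2.70 to 5.13 CPM. None of these 6 members passed.

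The 4 members that rose in stroked WT mice were expressed at low levels. Beside Kcna5 they were Cacng5, a TARP-related gene, Cacna1s, the L-type pore of skeletal muscle, and Cacng1, its gamma subunit. Cacng5 went from 8.49, 9.28, 8.14 and 8.14 to 20.3, 13.7, 12.6 and 43.8 CPM (1.41 ± 0.416, edgeR, adjusted p = 0.0147). Cacna1s went from 0.626, 0.517, 0.530 and 0.440 to 1.09, 0.556, 1.09 and 1.89 CPM, with overlap (1.12 ± 0.356, edgeR, adjusted p = 0.022). Cacng1 rested on 1 to 6 counts per library without and 6 to 19 counts with stroke, at 0.0854, 0.0544, 0.0265 and 0.165 CPM and then 0.252, 0.167, 0.435 and 0.58 CPM. Its fitted log2 fold change was 2.04 ± 0.712 (edgeR, adjusted p = 0.0351), and the call was lost in 5 of 8 fits without a single library. The summed markers of skeletal muscle were 7.15 to 10.3 CPM without and 6.29 to 9.49 CPM with stroke, so they did not move with the last pair.

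**Figure D2:**
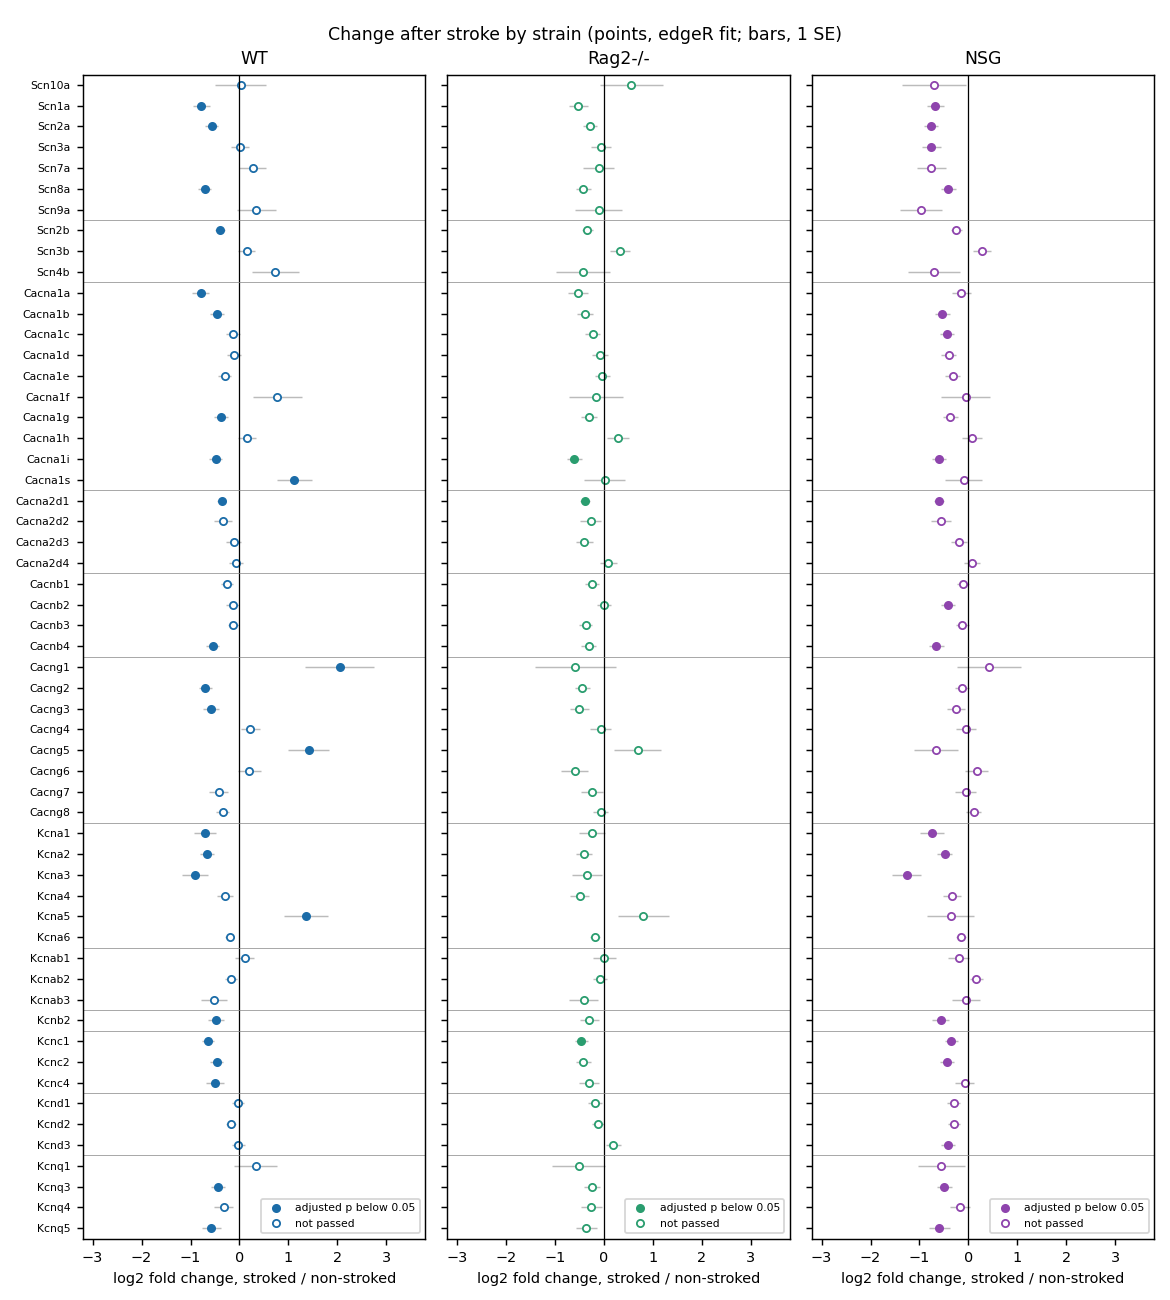
Log2 fold change of stroked against non-stroked mice for 56 members in WT, Rag2-/- and NSG mice (points; filled where the adjusted p was under 0.05; bars, 1 SE). In WT mice, 21 filled points lie left of 0 and 4 right of it, in Rag2-/- mice 3 lie left, and in NSG mice 19 lie left.

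The title prefix and the neuronal markers moved with these falls. Against the same non-stroked mice, the 2 Imm2 stroked WT libraries alone gave 8 falls and no rise, where 8.72% of all genes tested passed, and all 27 members kept their direction, between -0.87 and 1.32 on the log2 scale. With the prefix as a covariate 11 members fell and none rose, where 12.3% of all genes passed. Leaving out stroked replicate 4, a TF library, left 15 falls, again with no rise, where 15.8% of all genes passed. The members that fell in every one of these fits and in each fit without a single library were Cacnb4, Cacng2, Kcna2, Kcnc1, Kcnc2, Scn1a and Scn8a. Cacna1a was at -0.48 in the Imm2 libraries (edgeR, adjusted p = 0.0751). Of the 8 neuronal markers 6 fell, with a median log2 fold change of -0.42, and 22 of the 61 members lay below that median. The summed interneuron markers were 808 to 857 CPM without stroke and 773, 705, 752 and 991 CPM with stroke. Replicates 1 to 3 thus lay below the non-stroked range and replicate 4 above it. No single interneuron marker passed as a fall, beside the falls of Scn1a and of Kv3 genes. The part of the prefix and of the markers in the result was not tested.

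Sequence upstream of the start is shown for Kcnc1 and Scn1a, from the 7 members just named, because for these 2 the RefSeq table holds a single start and the window before it lies outside the annotated gene but for at most 3 bases. Both genes fell by similar amounts, and the windows differ in composition. Each run is the 250 bases before the RefSeq start on build GRCm38.p6, read 5′ to 3′ on the gene's strand, with GC boxes (GGGCGG) and CCAAT boxes in capitals on either strand. Kcnc1 (chr7:46396218-46396467, plus strand) has 3 GC boxes, no CCAAT box and 74.4% G and C. Scn1a (chr2:66440838-66441087, minus strand) has no GC box, 1 CCAAT box and 46.8% G and C.
Kcnc1: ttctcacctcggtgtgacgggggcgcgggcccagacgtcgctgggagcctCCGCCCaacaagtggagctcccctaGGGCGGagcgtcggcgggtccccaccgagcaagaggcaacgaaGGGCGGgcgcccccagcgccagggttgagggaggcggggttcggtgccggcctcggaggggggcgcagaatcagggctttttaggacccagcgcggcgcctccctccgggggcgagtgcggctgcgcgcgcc
Scn1a: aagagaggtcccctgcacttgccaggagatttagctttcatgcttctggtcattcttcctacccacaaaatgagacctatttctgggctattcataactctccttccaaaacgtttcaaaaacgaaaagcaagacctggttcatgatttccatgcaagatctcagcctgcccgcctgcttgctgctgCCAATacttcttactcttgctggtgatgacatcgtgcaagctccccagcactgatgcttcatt
Windows were found for 45 of the 65 members, 64 windows in all. A GC box was present in 35.9% of them, in 29.2% of the 24 windows of members that fell in WT mice and in 32.7% of all 32851 windows of the table. A CCAAT box was present in 23.4%, 29.2% and 33.8% of the same sets.

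In Rag2-/- mice few members passed, though most values were lower after stroke. Cacna1i fell from 182, 178 and 157 to 99.2, 133 and 108 CPM (log2 fold change -0.61 ± 0.155, edgeR, adjusted p = 0.0151). Kcnc1 fell from 286, 289 and 277 to 177, 229 and 214 CPM (-0.46 ± 0.135, edgeR, adjusted p = 0.0331), and Cacna2d1 from 254, 276 and 256 to 178, 205 and 218 CPM (-0.38 ± 0.109, edgeR, adjusted p = 0.027). These were 3 of 61 members, where 1.53% of all genes fell, and no member rose, where 6.71% of all genes rose (8.23% passed in either direction). For 30 members every stroked Rag2-/- mouse lay below every non-stroked one, against 16.9% of all genes, and the median log2 fold change was -0.27. Scn8a, as an example of these, was at 630, 659 and 590 and then at 425, 541 and 440 CPM, at -0.42 ± 0.157 (edgeR, adjusted p = 0.104). Cacna1i was lost in 4 and Kcnc1 and Cacna2d1 in 5 of the 6 fits without a single library, and 15 members fell when only the Rag2-/- groups were fitted. For that last fit the share of all genes is not given here. The neuronal markers had a median of -0.30 and none of the 8 passed.

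In NSG mice 21 members fell and none rose, where 8.89% of all genes fell and 13.0% rose. All 4 brain sodium channel pores were among them. Scn2a went from 467, 466, 494 and 459 to 193, 309 and 330 CPM (log2 fold change -0.77 ± 0.143, edgeR, adjusted p = 0.000699). Scn3a went from 51, 45, 70.8 and 56.1 to 20, 36.9 and 41.8 CPM (-0.76 ± 0.196, edgeR, adjusted p = 0.00782). Scn1a went from 238, 236, 179 and 292 to 116, 138 and 191 CPM (-0.67 ± 0.182, edgeR, adjusted p = 0.0104). Stroked and non-stroked NSG mice were apart for Scn2a and Scn3a and overlapped for Scn1a.

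Among NSG potassium channel genes, Kcna3 fell furthest. This gene was at 8.10, 8.48, 11.3 and 7.02 CPM without and at 1.27, 4.77 and 4.90 CPM with stroke (log2 fold change -1.26 ± 0.295, edgeR, adjusted p = 0.00399). Kcna1 went from 121, 117, 100 and 135 to 26.8, 95.7 and 90 CPM (-0.74 ± 0.25, edgeR, adjusted p = 0.0358). The lowest value of both belonged to stroked replicate 1. Kcnb2 went from 42.4, 37.1, 36.3 and 29 to 16.4, 31.8 and 25.2 CPM (-0.56 ± 0.175, adjusted p = 0.0227 in edgeR). Kcnq5 went from 145, 166, 138 and 160 to 74.6, 89.2 and 139 CPM (-0.59 ± 0.205, adjusted p = 0.0395 in edgeR). Both overlapped between groups. Of the Kv3 genes Kcnc1 and Kcnc2 fell (-0.35 and -0.44), and Kcnc4 was at -0.08 ± 0.195.

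Of the calcium channel genes, Cacna2d1 had the smallest adjusted p in NSG mice. It went from 242, 264, 269 and 256 to 142, 178 and 192 CPM, with no overlap (log2 fold change -0.59 ± 0.103, edgeR, adjusted p = 0.000368). Cacnb4 went from 278, 296, 227 and 324 to 139, 179 and 218 CPM (-0.65 ± 0.149, edgeR, adjusted p = 0.00322). Cacna1i went from 131, 160, 132 and 180 to 74.1, 99.4 and 125 CPM (-0.60 ± 0.147, edgeR, adjusted p = 0.00547). Cacna1b went from 190, 188, 199 and 184 to 88.0, 149 and 157 CPM (-0.53 ± 0.149, edgeR, adjusted p = 0.0131). These 4 genes were apart between the NSG groups. Cacna1a, which fell in WT mice, was at 332, 339, 247 and 308 CPM and then at 216, 340 and 274 CPM (-0.14 ± 0.192, edgeR, adjusted p = 0.62).

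NSG stroked replicate 1 stood apart, with the lowest value of its group for most of these genes and the highest for Cacng7 (356 CPM against 224 and 291). Without it 4 members fell, Cacna2d1, Cacnb4, Kcna3 and Scn2a, where 10.9% of all genes passed, and the median moved from -0.35 to -0.25. When only the NSG groups were fitted 2 members fell, a count given without the share of all genes. The NSG neuronal markers had a median of -0.11, with 2 of 8 falling, and 47 of the 61 members lay below that median.

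Whether strains differed in their response was tested directly, and no member passed. For NSG against WT, 11 of 61 members had an unadjusted p under 0.05 in edgeR, beside 12.7% of all genes. At the adjusted threshold in edgeR 0.0294% of all genes passed, 0.0235% with a higher and 0.00587% with a lower response in NSG mice. DESeq2 called 1 member, a count given without the share of all genes that DESeq2 called. Scn3a differed by -0.77 ± 0.263 (edgeR, adjusted p = 0.249) and Cacna1a by 0.65 ± 0.26 (adjusted p = 0.32 in edgeR). For Rag2-/- against WT, 2 members had an unadjusted p under 0.05 in edgeR, beside 4.19% of all genes. DESeq2 called no member, and no gene in the table passed the adjusted threshold in edgeR. Its largest difference was -2.63 ± 1.10 for Cacng1, on at most 19 counts. The counts of falls in the 3 strains are therefore not shown to differ by strain.

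**Figure D3:**
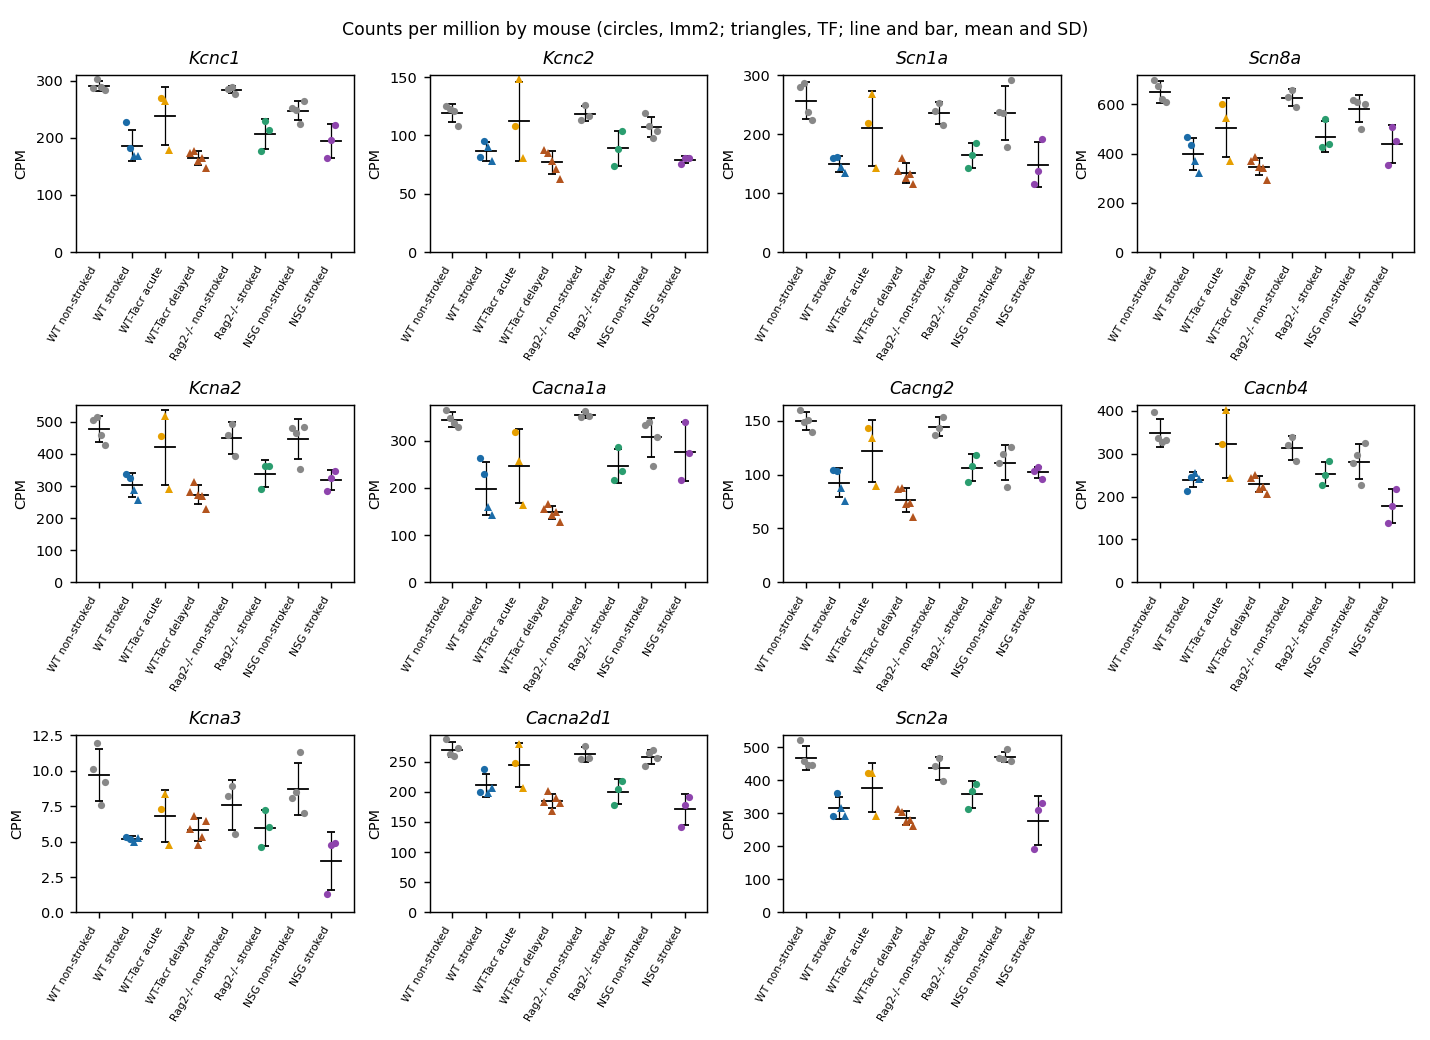
CPM of 11 members in each mouse (circles, Imm2; triangles, TF) with the group mean and SD. Kcnc1 lies between 284 and 303 in non-stroked WT mice and between 168 and 227 in stroked WT mice, and the triangles for Kcnc1 lie between 147 and 179 but for acute replicate 2 at 265.

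Without stroke, few members passed between strains. Between non-stroked NSG and WT mice 4 members passed, or 6.56% against 9.76% of all genes, with 4.84% higher and 4.92% lower in NSG mice. An unadjusted p under 0.05 in edgeR was found for 18 of the 61 members there, a count given without the share of all genes. Scn9a, known from sensory neurons, was at 1.77, 2.86, 1.43 and 1.59 against 5.41, 4.27, 10.2 and 4.61 CPM (1.68 ± 0.4, edgeR, adjusted p = 0.00645). Cacng6 was at 0.626, 0.762, 0.955 and 0.715 against 1.46, 1.27, 2.15 and 1.39 CPM (1.03 ± 0.229, edgeR, adjusted p = 0.00345). Both genes were higher in every NSG mouse and passed in each fit without a single library. Cacng2 was lower, at 111, 119, 88.4 and 126 CPM (-0.43 ± 0.134, edgeR, adjusted p = 0.04), a call lost in 7 of 8 such fits. Kcna10, which was too low to test, had 0 counts in all 7 NSG libraries and 0 to 13 counts in the others. Between non-stroked Rag2-/- and WT mice no member passed and none had an unadjusted p under 0.05 in edgeR, where 2.05% of all genes did. DESeq2 called no member, and 0.00587% of all genes passed the adjusted threshold in edgeR. The largest difference there was 1.16 ± 0.81 for Cacng1, at 0.283, 0.122 and 0.159 CPM in Rag2-/- mice.

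In acute tacrolimus mice no member passed against non-stroked WT, where 8.54% of all genes did, 6.18% higher and 2.36% lower. At an unadjusted p under 0.05 there were 11 members in edgeR, beside 27.6% of all genes. DESeq2 called 2 members at the adjusted threshold, and its share of all genes is not given here. The median log2 fold change was -0.13. The largest change was that of Cacng1, at 0.341, 0.0416 and 0.502 CPM (1.82 ± 0.771, edgeR, adjusted p = 0.126). The 3 mice differed widely, with replicate 3 apart from the others. Kcnc1 was at 269, 265 and 179 CPM, Scn1a at 219, 268 and 142 CPM and Kcna2 at 455, 517 and 290 CPM, against 257 to 338 CPM for Kcna2 in stroked WT mice. Without replicate 1, one of the pair whose title and table name differ in animal number, there were 9 falls. How many of all genes passed in that fit is not given here. Against stroked WT mice no member and no gene passed in edgeR, DESeq2 called no member, and 15 members had an unadjusted p under 0.05, beside 12.7% of all genes. The largest difference was Cacng5, at 7.64, 5.54 and 23.4 CPM in acute mice (-0.90 ± 0.451, edgeR, adjusted p = 0.407). Without acute replicate 3, whose microglia marker sum was in the stroked range, 10 members were higher and 1 lower than in stroked WT mice. This count too stands without the share of all genes, and it is not read as particular to the members.

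Delayed tacrolimus mice gave the largest number of passing members among the stroke comparisons. Against non-stroked WT mice 33 members fell and 7 rose, where 27.6% of all genes fell and 27.6% rose (55.2% in all), and the median log2 fold change was -0.45. This comparison, that of stroked WT and that of acute mice share the same 4 non-stroked mice. Cacna1a was at 156, 166, 142, 148 and 127 CPM (log2 fold change -1.22 ± 0.168, edgeR, adjusted p = 3.54e-06), and Cacng7 at 142, 154, 144, 137 and 142 CPM (-1.07 ± 0.185, edgeR, adjusted p = 4.24e-05). All delayed mice lay below all non-stroked WT mice for both. All 8 neuronal markers fell too, with a median of -0.68, and 18 members lay below that median. With the prefix as a covariate 7 members fell, Cacna2d1, Cacnb4, Cacng2, Kcnc1, Kcnc2 and Scn1a among them, and none rose. These 7 falls stand without the share of all genes that passed in that fit. In that fit Cacna1a was at -0.56 (edgeR, adjusted p = 0.0661) and Cacng7 at -0.16 (edgeR, adjusted p = 0.552), so neither passed.

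Between delayed and untreated stroked WT mice no member and no gene passed in edgeR. DESeq2 called no member, and 14 of 61 members had an unadjusted p under 0.05 in edgeR, beside 20.3% of all genes. Without WT stroked replicate 3 there were 4 passing members and without replicate 4 there were 5, all lower in delayed mice. Shares of all genes for these fits are not given here. Within the TF libraries (5 delayed and 2 untreated) no member passed either. The TF untreated mice were at 159 and 143 CPM for Cacna1a and 141 and 159 CPM for Cacng7, close to the delayed values. Over the whole groups the largest difference was that of Scn9a, at 5.43, 1.73, 4.26, 7.92 and 4.22 CPM in delayed mice against 1.87, 2.19, 3 and 2.72 CPM (0.95 ± 0.383, edgeR, adjusted p = 0.191).

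Against acute mice, delayed mice had 25 members lower and 1, Scn9a, higher, where 9.96% and 10.4% of all genes did the same. Kv3 genes were among the lower ones, at -0.53 ± 0.119 for Kcnc1, -0.54 ± 0.133 for Kcnc2 and -0.66 ± 0.185 for Kcnc4. The largest fall was that of Kcnab3, a Kv beta subunit, at 103, 94.6 and 60.7 CPM in acute and 36.0, 54.0, 39.0, 40.3 and 41.8 CPM in delayed mice (-1.02 ± 0.269, edgeR, adjusted p = 0.0134). The result rested on acute replicates 1 and 2, the libraries whose title and table name differ in animal number: without either of them no member passed, and none passed within the TF libraries or with only the 2 groups fitted. The microglia marker sums of those replicates were 244 and 203 CPM, against 819 to 1740 CPM in delayed mice, and 6 of 8 neuronal markers were lower in delayed mice. Their part in the result was not tested.

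**Figure D4:**
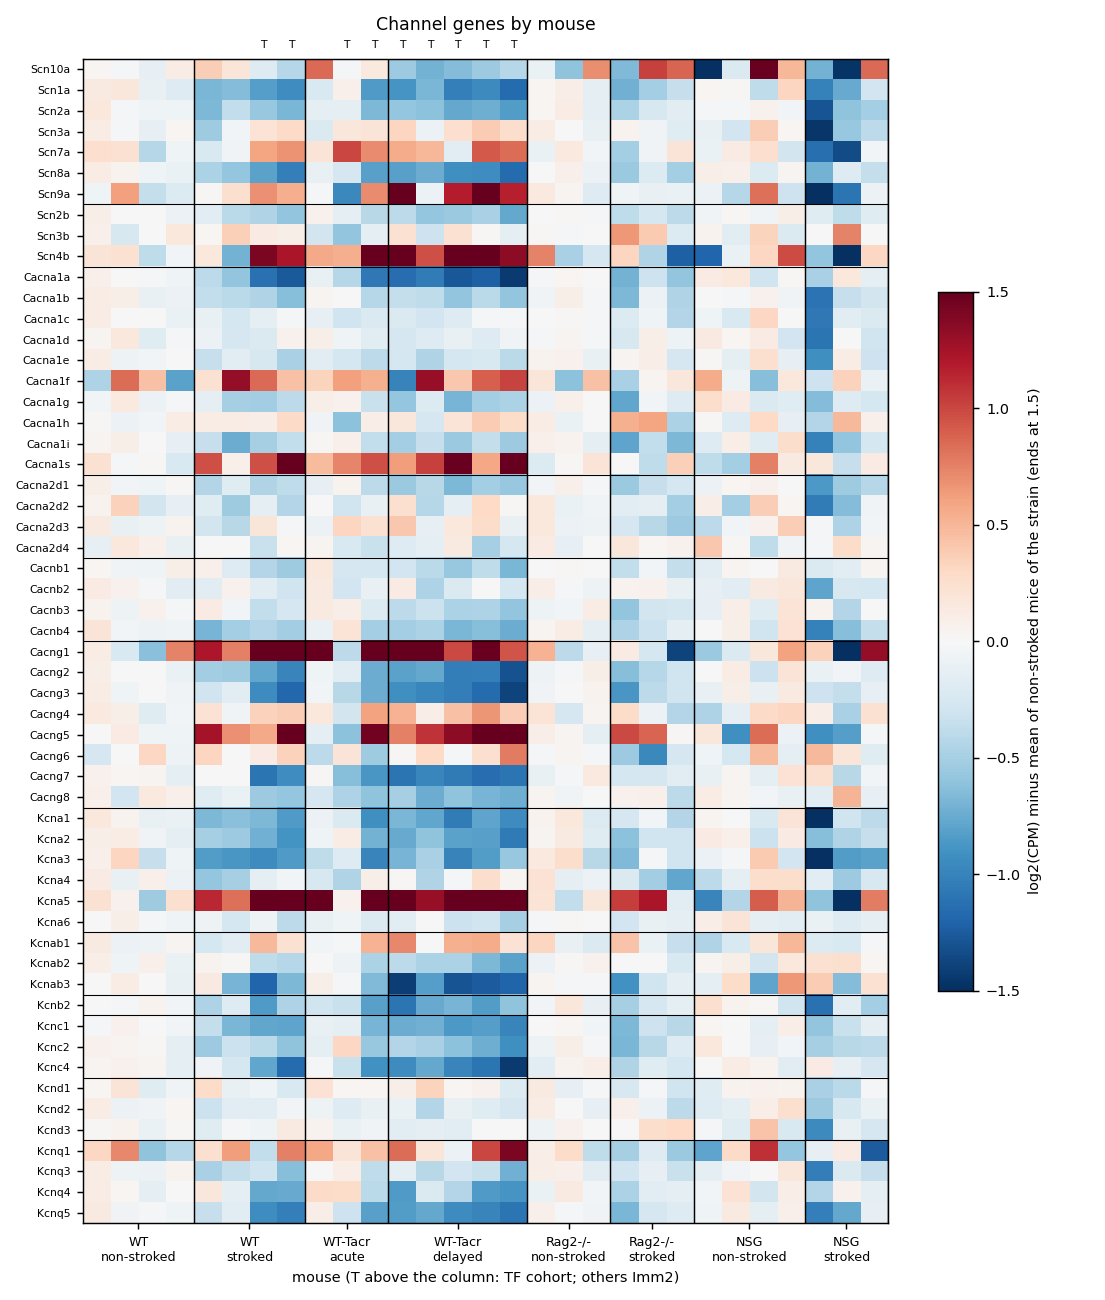
Log2 CPM of 56 members in each mouse minus the mean of the non-stroked mice of its strain (color, ends at 1.5; T marks TF libraries). Acute replicates 1 and 2 are pale, acute replicate 3 is colored like the delayed and TF stroked WT mice, and NSG stroked replicate 1 is the darkest blue column of its group.

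Scn4b had the order over mice of markers of the striatum, the structure below the cortex, in each group but delayed and non-stroked WT mice. Kcna5 had that order in stroked NSG mice but not in stroked WT mice. The sum of Drd1, Drd2, Adora2a, Rgs9 and Gpr6 was 56.4 to 144 CPM in non-stroked WT, 89.5 to 312 in stroked WT, 221 to 498 in delayed, 73.3 to 523 in non-stroked NSG and 16.6 to 416 CPM in stroked NSG mice. Scn4b, a beta subunit abundant in striatal projection neurons, was at 178, 183, 121 and 153 CPM in non-stroked WT mice, whose marker sums were 144, 110, 56.4 and 124 CPM. In stroked WT mice it was at 175, 95.4, 417 and 367 CPM beside sums of 160, 89.5, 312 and 292 CPM. In stroked NSG mice it was at 154, 48.9 and 290 CPM beside sums of 223, 16.6 and 416 CPM. In these WT and NSG stroked groups the order of the mice by these markers was thus their order by Scn4b. The same held in Rag2-/- mice with and without stroke, in non-stroked NSG mice and in acute mice. In non-stroked WT mice the lowest of both was replicate 4. Delayed mice broke the order, with Scn4b at 543, 306, 458, 537 and 396 CPM beside sums of 441, 221, 373, 498 and 377 CPM. Kcna5 had the order of the markers in stroked NSG mice, at 3.64, 1.70 and 9.58 CPM. In delayed mice, where 4 of the 5 striatal markers rose, Scn4b rose (log2 fold change 1.5 ± 0.472, edgeR, adjusted p = 0.00963), as did Kcna5, Cacng5 and Scn9a. Cacng5 and Scn9a did not keep the order of the markers in stroked NSG mice. Nor did Cacng5, Scn9a or Kcna5 in stroked WT mice, where Scn9a was at 1.87, 2.19, 3 and 2.72 CPM. Kcna5 was there at 6.61, 5.36, 9.3 and 10.4 CPM. Beside the sums given above, Cacng5 was at 20.3, 13.7, 12.6 and 43.8 CPM in stroked WT mice and at 9.19, 9.81 and 17.2 CPM in stroked NSG mice. Scn9a was at 1.34, 2.67 and 5.42 CPM in stroked NSG mice, so that for both genes replicate 1 was the lowest although replicate 2 had the lowest sum. Among non-stroked NSG mice Scn9a was highest in replicate 3, with a marker sum of 446 CPM, and next highest in replicate 1, whose striatal sum was 73.3 CPM and whose thalamic marker sum was 237 CPM, against 59.4 to 83.6 CPM in the other 3. Replicate 4, which had the highest striatal sum at 523 CPM, was at 4.61 CPM for Scn9a. The part of these markers in the results for Scn4b, Kcna5, Cacng5 and Scn9a was not tested.

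**Figure D5:**
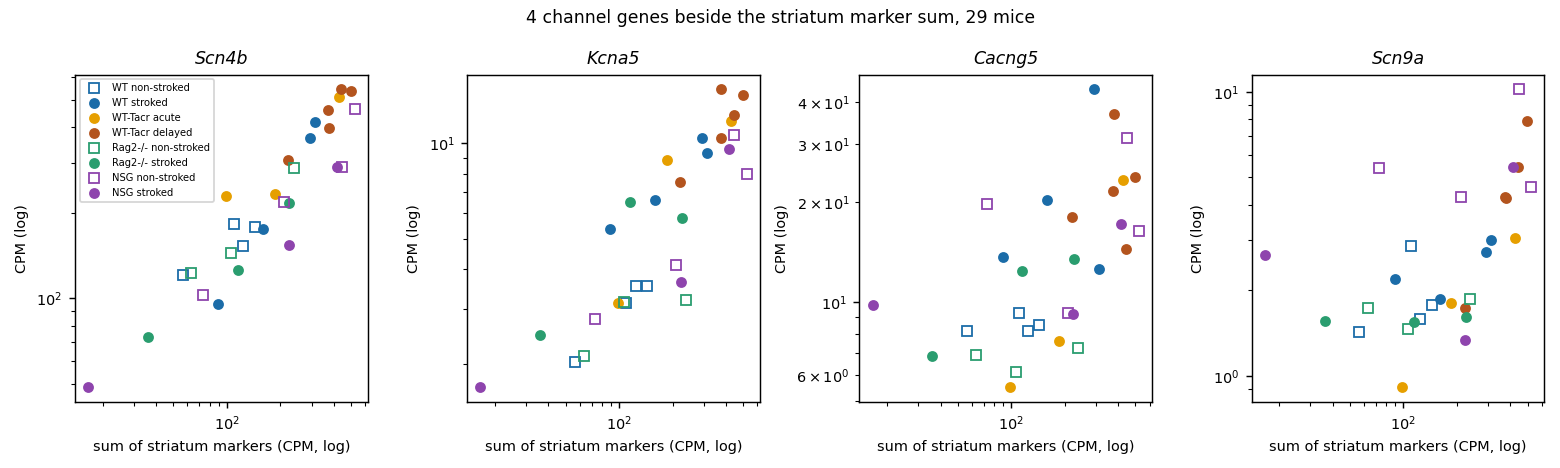
CPM of Scn4b, Kcna5, Cacng5 and Scn9a against the summed CPM of 5 striatum markers in 29 mice, both on log axes (open squares, non-stroked; filled circles, stroked). Scn4b runs from 48.9 CPM at a sum of 16.6 to 543 CPM at a sum of 441, while Scn9a is highest, at 10.2 CPM, in non-stroked NSG replicate 3 and not at the highest sum of 523 CPM.

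Genes that hold or modulate these channels at the axon initial segment and node, and channel genes outside the symbol rule, were read beside them. Of 13 anchors and modulators 11 fell in stroked WT, 7 in stroked NSG, none in stroked Rag2-/-, 1 in acute and 13 in delayed mice. The shares of all genes that fell were 11.6%, 8.89%, 1.53%, 2.36% and 27.6%, in the same order. Ank3, which encodes ankyrin-G, the organiser of the initial segment, changed by -0.63 in WT and -0.66 in NSG mice (edgeR, adjusted p = 0.0023 and 0.00411). Fgf14, a sodium channel modulator, changed by -0.35 and -0.70 (edgeR, adjusted p = 0.0367 and 0.000866). In stroked WT mice 3 of 9 silent Kv genes tested fell, led by Kcng3 at -1.05, as did 3 of 8 ether-a-go-go genes and 2 of 4 HCN genes. None of 6 Kv4 partner genes passed in WT mice. In that comparison 11.6% of all genes fell and 15.2% rose. In a list of 6 potassium channel genes known from immune cells, Kcnn4 and Kcnk6 rose in stroked WT mice (log2 fold changes 3.38 and 1.07, edgeR, adjusted p = 0.000776 and 9.29e-05), Kcna3 and Kcnma1 fell, and 2 did not pass.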

How the data were processed

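The authors sequenced polyA-selected, stranded TruSeq libraries and deposited raw read counts per Ensembl gene, 1 file per mouse. The aligner, build and strand setting were not given in the sources used here. Gene names, coordinates and exon lengths came from GENCODE M21 (GRCm38), which named 25712 of 25746 identifiers. Groups followed the GEO labels. The members and lists were chosen with earlier results of these data known. Values by mouse are given for members among the 12 largest changes that passed in WT, Rag2-/-, NSG or non-stroked NSG mice, for the highest member of each subfamily, and for the largest change where none passed. Some members are counted in the totals but not reported here by name.

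Counts were fitted once over 8 groups with edgeR 4.0.16 in R 4.3.3 (TMM normalization, filterByExpr by group, quasi-likelihood test), leaving 17031 genes. P-values were adjusted by Benjamini-Hochberg, with 0.05 as the threshold. CPM used TMM-scaled library sizes, and levels between genes were divided by union exon length in kilobases. The labels do not describe how mice were housed or bred. In the main fit a p-value sets a group difference against a spread between mice estimated over all 8 groups. Alternatives were RLE scaling, other count filters, DESeq2 1.42.0, fewer groups, the title prefix as a covariate, single prefixes and leaving out each mouse. The edgeR fit was tested on simulated counts.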

Additional observations from a re-analysis of the deposited data

Results flagged for a closer look

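The values of 34 members in the 4 groups with 4 or 5 mice were searched with Dixon's test for a mouse far from the rest of its group. It set apart 4 of 136 group values, where chance sets apart about 1 in 20. Cacnb4 was at 397 CPM in non-stroked WT replicate 1, against 337 CPM in the nearest mouse of that group. Kcnc4 was at 87.8 CPM in non-stroked WT replicate 5, against 99.5 CPM in the nearest. Kcna2 was at 354 CPM and Scn8a at 502 CPM in non-stroked NSG replicate 3, against 465 and 600 CPM in the nearest. That library also had the highest non-stroked NSG value of Scn9a.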

How the results depend on the processing

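The number of passing members is given under each alternative that moved it by more than 1.5 times. Shares of all genes are not set beside these counts, so the counts are not read as particular to the members. With the title prefix as a covariate, 11 members passed in stroked WT, 9 in Rag2-/-, 7 in delayed mice and 13 between delayed and acute mice. Within the Imm2 libraries 8 passed in stroked WT, and within the TF libraries 0 passed between delayed and acute mice. With only the groups compared in the fit, 15 passed in Rag2-/-, 2 in NSG, 13 between non-stroked NSG and WT, and 0 between delayed and acute mice. With DESeq2, 5 passed in Rag2-/- and 2 in acute mice, and 1 for the NSG difference in response. With a log2 fold change above 1 also required, 4 passed in stroked WT, 0 in Rag2-/-, 2 in NSG, 13 in delayed and 2 between delayed and acute mice. Leaving out 1 library at a time gave 15 to 32 in stroked WT, 0 to 3 in Rag2-/-, 4 to 25 in NSG, 0 to 9 in acute mice, 37 to 41 in delayed mice, 3 to 6 between non-stroked NSG and WT, 0 to 11 between acute and stroked WT, 0 to 5 between delayed and stroked WT, 0 to 31 between delayed and acute, and 0 to 3 for the NSG difference in response. The lowest counts came without WT stroked replicate 4 (15), without NSG stroked replicate 1 (4) and without acute replicate 1 or 2 (0 between delayed and acute), and without NSG non-stroked replicate 1 the NSG count was 13. The causes of these shifts were not tested. RLE scaling and no filter on low counts kept every count within 1.5 times, and no member that passed changed direction without a single library.

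The replicate numbers shared by non-stroked groups did not pair the mice. Correlations of same-numbered mice were -0.258 to 0.108 over 3 numbers for NSG with WT and 0.0775 to 0.0826 over 2 numbers for Rag2-/- with WT. With the replicate block, over the mice that share a number, 6 members passed for NSG against WT (5 without the block) and 0 for Rag2-/- against WT (0 without it). Stroke comparisons had no shared numbers of this kind. Members under about 10 counts, Cacng1 above all, were limited by depth.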
